A study of Mus musculus with 4 samples.

Results

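The genes described here encode the latent transforming growth factor β (TGF-β) system: the ligands *Tgfb1*, *Tgfb2* and *Tgfb3*, the receptors *Tgfbr1*, *Tgfbr2* and *Tgfbr3*, and the latent TGF-β binding proteins *Ltbp1*, *Ltbp2*, *Ltbp3* and *Ltbp4*. They were taken by symbol, after the accession of each non-control probe had been matched to a RefSeq gene table. They are 10 of the 45604 genes tested and are read by 15 of the 56605 probes of the array. All 10 were measured on every array, none was removed by a filter, and none had a flagged spot. Gene expression was compared between septal nasal mucosa of young adult mice (8 weeks of age) and aged mice (16 months of age). All mice were C57BL/6 (strain C57BL/6J in the sample labels), are described as male, and no treatment of them is named in the methods of these samples. Each age had 2 single-colour arrays, and each array was hybridized with Cy3-labelled RNA pooled from 5 mice. Whether the pools of one age shared mice is not given in the sources used here. The methods allot fewer mice of each age to gene analyses than would fill separate pools, so the P-values below measure the spread between pools, which may be technical.

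A text field of the sample labels names silica aspiration and lung cells, which matched neither the tissue nor the titles and was not used. The tissue label is olfactory epithelium, but septal mucosa also holds connective tissue and vessels, and markers of fibroblasts, endothelium and bone were measured on all arrays. The RNA of *Xist*, a gene active in female cells, passed the background threshold on 4 of 4 arrays (intensity 612 to 645), whereas 0 of 7 probes for 4 Y-linked genes did so on any array. The arrays therefore went against the described sex, in the same way in both ages. Between 63.1% and 76.8% of probes per array were well above background, and gene-level log2 values of any pair of arrays correlated at r = 0.982 to 0.989. Young adult array 1 and aged array 1 shared a slide, and the other arrays lay on slides of their own. In bulk tissue, fewer cells of a type and less RNA per cell cannot be told apart.

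TGF-β is made as a precursor that stays bound, without a covalent link, to its own cleaved propeptide, and this latent complex cannot reach the receptor. Latent TGF-β binding proteins attach the complex to microfibrils of the extracellular matrix, from which integrins, thrombospondins and proteases can release the active ligand. The released dimer binds the type II receptor, which recruits and phosphorylates the type I receptor, and SMAD proteins then carry the signal to the nucleus, where genes of collagen and other matrix proteins are among the known targets.

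All 10 genes had lower mean expression in the aged group (48.5% of all genes did), and 2 of them passed both criteria of the test (P below 0.05 and Benjamini-Hochberg FDR below 0.25 over all genes). These were *Ltbp4* and *Tgfbr2*. Among all genes, 2.33% were called lower, and of the 25513 whose mean expression reached 100 the share was 3.28%. The ages did not overlap for any of the 10, both aged values being the lower, compared with 21.8% of all genes and 26.4% of those whose mean reached 100. At P below 0.05 alone, 7 of the 10 were lower, against 7.08% of all genes and 8.72% of those whose mean reached 100. The median log2 fold change of the 10 genes was -0.34, and that of all genes was 0.01. None of the 10 reached the 1.5-fold limit used for differentially expressed genes, which 1.15% of all genes, and 2.05% of those whose mean reached 100, passed in the lower direction.

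With 2 pools against 2, an exact two-sided permutation test cannot give a P-value below 0.333, so each call rests on the model of limma. It joins the spread of the gene itself (2 residual degrees of freedom) with a spread borrowed across genes (1.38 prior degrees of freedom). With each of the 4 arrays left out in turn, 0 of all genes passed the FDR limit. The number called among the 10 was 9 when the fit allowed the spread to follow intensity, where 7.71% of all genes were called lower, and 8 when genes whose mean expression was under 100 were left out, where 13% were.

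**Figure D1:**
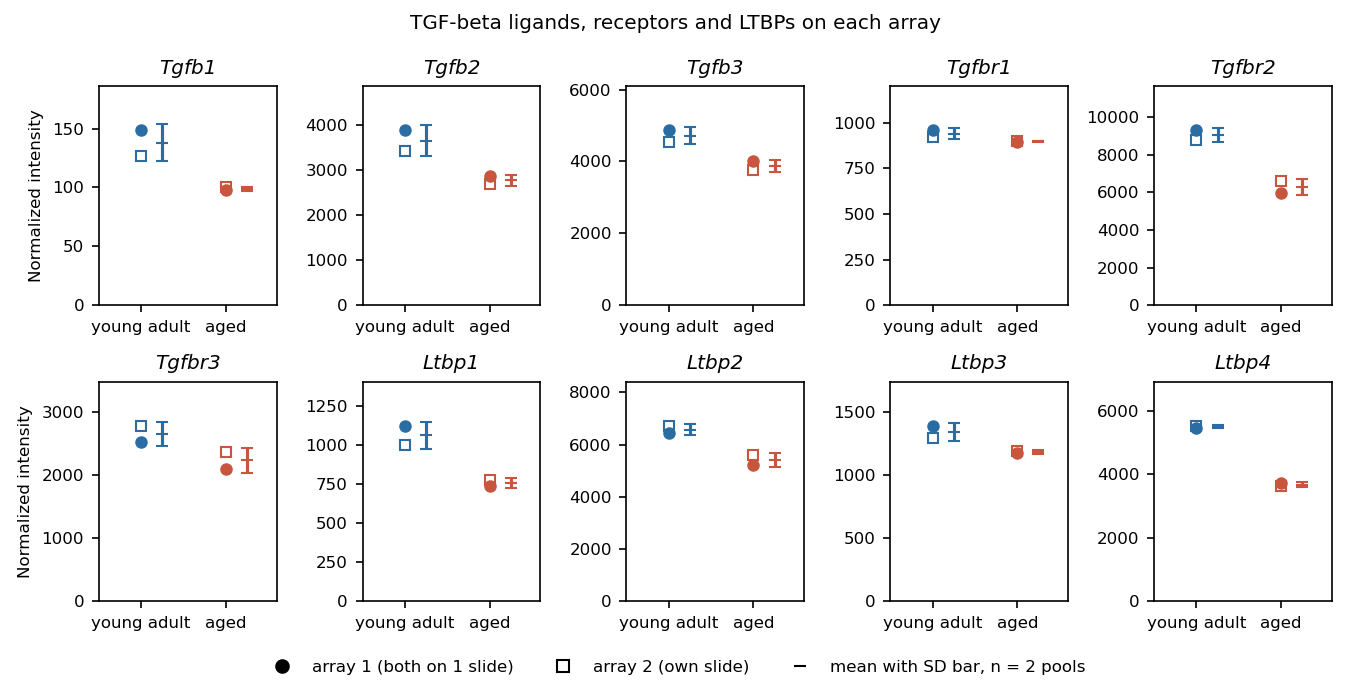
Normalized intensity (linear axes from 0, a scale for each gene) of the 10 genes on the 4 arrays, with a point per array coloured by age, filled for arrays of the shared slide, and beside them the mean ± SD of each age (n = 2 pools). The aged points lie below the young adult points for all 10 genes, with the narrowest gap for *Tgfbr1* (940.4 against 898 on average).

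The RefSeq promoter windows (assembly GRCm38.p6, the 250 bases before an annotated start, written in the direction of transcription) of 5 of the genes are shown for what they hold in common and where they differ: those of both genes that passed the test, of *Ltbp1*, which came next by size of change, and of 2 ligands. Capitals mark every match, on either strand, to any of 5 motifs, and a match on the other strand reads as its reverse complement. The motifs are CAGAC, the core of the SMAD binding element, and GGGCGG, known as the GC box. The cAMP response element TGACGTCA and the E-box CACGTG were searched as well, as was TATAAA, which marks many core promoters. The last base of each line is the base before the start, and no matches overlapped. The windows of *Ltbp4* and *Tgfb2* lie inside the annotated span of their gene, and that of *Ltbp1* runs past the first base of its gene. For these genes the start used is therefore not the outermost end of the gene. The window of *Ltbp4* is chr7:27337613-27337862 (minus strand), of *Tgfbr2* chr9:116175364-116175613 (minus strand), of *Ltbp1* chr17:75005279-75005528 (plus strand), of *Tgfb1* chr7:25686752-25687001 (plus strand) and of *Tgfb2* chr1:186705990-186706239 (minus strand).
Ltbp4: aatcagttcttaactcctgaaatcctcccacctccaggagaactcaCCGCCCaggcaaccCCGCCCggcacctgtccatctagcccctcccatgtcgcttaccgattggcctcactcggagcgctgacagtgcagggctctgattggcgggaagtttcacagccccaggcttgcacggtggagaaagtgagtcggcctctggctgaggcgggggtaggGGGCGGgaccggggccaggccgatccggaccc
Tgfbr2: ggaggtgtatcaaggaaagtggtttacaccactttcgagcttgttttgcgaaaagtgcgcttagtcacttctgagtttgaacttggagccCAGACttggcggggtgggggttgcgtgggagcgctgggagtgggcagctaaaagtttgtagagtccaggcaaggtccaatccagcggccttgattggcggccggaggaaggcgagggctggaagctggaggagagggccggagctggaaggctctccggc
Ltbp1: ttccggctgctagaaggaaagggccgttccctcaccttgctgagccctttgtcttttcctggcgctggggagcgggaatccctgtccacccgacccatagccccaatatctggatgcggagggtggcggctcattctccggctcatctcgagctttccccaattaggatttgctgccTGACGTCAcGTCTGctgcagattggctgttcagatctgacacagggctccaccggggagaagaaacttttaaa
Tgfb1: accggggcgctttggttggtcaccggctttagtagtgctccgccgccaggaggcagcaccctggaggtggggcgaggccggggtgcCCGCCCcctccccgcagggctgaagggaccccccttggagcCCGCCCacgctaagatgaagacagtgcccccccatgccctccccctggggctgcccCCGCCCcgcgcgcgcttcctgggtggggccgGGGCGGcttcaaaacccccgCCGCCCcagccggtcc
Tgfb2: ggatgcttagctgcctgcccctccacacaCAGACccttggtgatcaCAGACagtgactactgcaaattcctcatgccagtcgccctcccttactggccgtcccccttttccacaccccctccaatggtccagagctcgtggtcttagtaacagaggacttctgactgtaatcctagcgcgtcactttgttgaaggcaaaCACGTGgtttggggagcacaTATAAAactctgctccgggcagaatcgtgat
The windows differed in composition. The *Tgfb1* window holds 5 GC boxes and is 75.2% G or C. The *Ltbp4* window shown, the first of 3 for this gene in the table, holds 3 (64.4%). The other windows of *Ltbp4* hold 5 and 7 (79.2% each). They overlap for most of their length (chr7:27333649-27333898 and chr7:27333664-27333913), and the 5 sites of one are among the 7 of the other. The *Tgfbr2* window holds neither a GC box nor a TATA box and has 1 CAGAC, 160 bases before the start. In the *Tgfb2* window, TATAAA begins 31 bases and CACGTG 51 bases before the start, with 2 CAGAC matches farther away. The *Ltbp1* window shown, the first of 2, holds TGACGTCA, 73 bases before the start and next to a CAGAC on the other strand. Over 8 of the 10 genes, with 12 windows in all, CAGAC occurred in 7 windows and GGGCGG in 6. The count for GGGCGG includes both overlapping *Ltbp4* windows. Of 32851 windows of the same length, 42.2% hold CAGAC, 32.7% GGGCGG, 12.4% TATAAA, 6.02% CACGTG and 1.55% TGACGTCA. *Tgfb3* and *Tgfbr3* were not analysed here for promoter sequence. These are matches of letters, and no factor binding was measured.

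Among the ligands, *Tgfb1*, *Tgfb2* and *Tgfb3* were each between 1.22-fold and 1.39-fold lower in aged mice, and none passed the FDR limit. *Tgfb1* encodes the isoform made by many immune, endothelial and connective tissue cells. Young adult arrays 1 and 2 gave normalized intensities of 149 and 127, and the aged arrays gave 97.7 and 100.2, for a log2 fold change of -0.48 ± 0.12 (SE; FDR = 0.295). The 2 young adult values differed more from each other than the 2 aged values did (138 ± 15.5 against 98.9 ± 1.73, mean ± SD, n = 2 pools each), but the ages did not overlap. Its 2 probes gave unequal changes. The probe with intensities of 275 and 229 in young adult and 203 and 205 in aged mice gave -0.30 (FDR = 0.438). The other, at 80.7 and 70.4 against 47.0 and 49.0, passed the background threshold in both young adult pools and in neither aged pool. It was an estimated 1.57-fold lower (FDR = 0.219 at the probe level, where 2.65% of probes were called lower). The *Tgfb1* log2 fold change was -0.30 with the most intense probe alone and -0.90 with the processed intensity scaled to the 75th percentile.

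*Tgfb2* and *Tgfb3* encode the isoforms best known from epithelial and mesenchymal tissues and from development. *Tgfb2* measured 3892 and 3416 in young adult mice and 2859 and 2683 in aged mice, with a log2 fold change of -0.40 ± 0.11 (SE; FDR = 0.322). The lowest young adult array lay above the highest aged array. Its 2 probes gave -0.41 and -0.38, close to each other. *Tgfb3* measured 4881 and 4556 against 4000 and 3755, again without overlap, with a log2 fold change of -0.28 ± 0.09 (SE; FDR = 0.365), and it was the ligand with the smallest change.

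The receptors differed among themselves in how far they were lower, although the differences between receptors were not tested. *Tgfbr2*, the type II receptor that binds the ligand first, fell in aged mice. It is read by 1 probe, so its value could not be compared between probes. It measured 9315 and 8769 in young adult mice against 5978 and 6573 in aged mice, so that the lower young adult value lay well above the higher aged value. The means were 9042 ± 386 and 6275 ± 421 (SD, n = 2 pools each), 30.7% lower in aged mice (log2 fold change -0.53, 95% confidence interval -0.82 to -0.24, FDR = 0.242). The FDR was close to the limit of 0.25, and with scaling to the 75th percentile in place of quantile normalization it was 0.270. On the shared slide the difference was -0.64, and between the other pair of arrays it was -0.42.

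*Tgfbr1*, the type I receptor kinase that phosphorylates SMAD2 and SMAD3, measured 960.5 and 920.4 in young adult mice and 896 and 900.1 in aged mice. The arrays did not overlap, but the gap was narrow. The log2 fold change was -0.07 with a 95% confidence interval of -0.30 to 0.16 (FDR = 0.754), which holds both no difference and a decrease of the size estimated for *Tgfb3*. One of its 2 probes overlapped between ages. *Tgfbr3*, or betaglycan, a co-receptor that presents ligand, TGF-β2 in particular, to the type II receptor, measured 2525 and 2789 against 2099 and 2372. Its log2 fold change was -0.25 (95% confidence interval -0.59 to 0.09, FDR = 0.484), within the error of these pools.

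Among the binding proteins, *Ltbp4* fell, and *Ltbp1*, *Ltbp2* and *Ltbp3* were lower without passing the FDR limit. *Ltbp4* encodes a microfibril-associated protein known for its part in elastic fibre assembly besides binding latent TGF-β1. It measured 5468 and 5535 in young adult mice against 3732 and 3616 in aged mice. The arrays of one age lay close together and far from the other age (5502 ± 47.4 against 3674 ± 82.2, SD, n = 2 pools each). It was 1.497-fold lower, just under the fold limit for a differentially expressed gene (log2 fold change -0.58, 95% confidence interval -0.81 to -0.36, FDR = 0.201). Both of its probes passed the test at the probe level, at -0.55 (FDR = 0.195) and -0.62 (FDR = 0.193). The difference was of like size on the shared slide (-0.55) and between the other arrays (-0.61). Without each array in turn it stayed between -0.61 and -0.56, with an FDR of 0.411 to 0.677.

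*Ltbp1*, which tethers the latent complex to fibrillin and fibronectin, measured 1125 and 1002 in young adult mice and 735 and 779 in aged mice. The ages were well apart, with a log2 fold change of -0.49 ± 0.10 (SE; FDR = 0.266). *Ltbp2*, which binds fibrillin but is not known to carry latent TGF-β, measured 6432 and 6728 against 5206 and 5585, a log2 fold change of -0.29 ± 0.09 (SE; FDR = 0.350). *Ltbp3*, a carrier of latent TGF-β with known roles in bone and teeth, measured 1393 and 1294 against 1172 and 1195. Its log2 fold change was -0.18 (95% confidence interval -0.44 to 0.07, FDR = 0.492), and the arrays of the ages overlapped for one of its 2 probes (-0.11) but not for the other (-0.25).

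**Figure D2:**
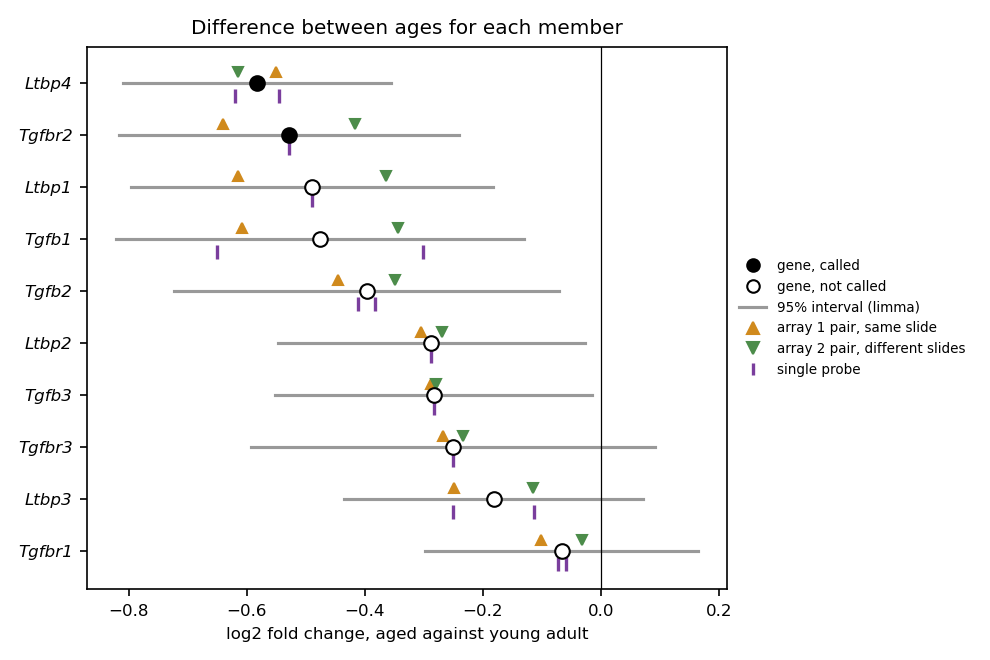
Log2 fold change (aged minus young adult) of the 10 genes, ordered by size, as circles (filled where called) with 95% confidence intervals from limma, with triangles for the difference on the shared slide and between the other arrays, and ticks for single probes. All 10 estimates lie below 0, from -0.07 for *Tgfbr1* to -0.58 for *Ltbp4*, and the intervals of *Tgfbr1*, *Tgfbr3* and *Ltbp3* include 0.

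By size of change, *Ltbp4* and *Tgfbr2* were followed by *Ltbp1*, *Tgfb1*, *Tgfb2*, *Ltbp2*, *Tgfb3*, *Tgfbr3*, *Ltbp3* and *Tgfbr1*. Neighbours in this order had overlapping confidence intervals. The genes whose values over the 4 arrays were nearest to those of *Ltbp4*, among 15467 named genes whose mean expression reached 100, were *Crip1*, *Flt1* and *Maf* (Euclidean distance 0.02 in log2 units for each). Those nearest to *Tgfbr2* were *Kif20a*, *Calm4* and *Pla2g4a*, and those nearest to *Ltbp1* were *Tspan18*, *Tmprss4* and *Nlrp10*. Over 4 arrays this likeness is a description of the same pattern of values and nothing further.

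The other genes of the pathway were described as 7 lists holding 123 genes. Of these, 25 fell, 0 rose and 98 were not called, with a median log2 fold change of -0.19. Among all genes, 2.33% were called lower and 1.65% higher. At an unadjusted P below 0.05 in limma, 46 of the 123 were lower and 2 higher. At that limit 7.08% of all genes were lower, and the share that was higher was not counted. The calls lay mainly in the lists of matrix partners, activators and TGF-β-induced genes, while the lists of SMAD proteins and SMAD inhibitors had none. The difference between lists was not tested.

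Among the microfibril and matrix partners, where latent TGF-β is held, 6 of 15 fell and 0 rose, with a median log2 fold change of -0.43. *Fbn1*, the fibrillin that forms the microfibril to which latent TGF-β binding proteins attach, measured 976 and 1034 in young adult mice and 381 and 394 in aged mice (log2 fold change -1.37, FDR = 0.168). It was 2.59-fold lower with no overlap. *Fbn2*, a fibrillin of developing tissue, fell by 1.08 on the log2 scale (FDR = 0.193). *Fmod*, fibromodulin, a small leucine-rich proteoglycan that binds collagen and TGF-β, fell by 1.04 (FDR = 0.178). *Mfap2*, a microfibril glycoprotein, fell by 0.91 (FDR = 0.197), and *Emilin1*, an elastic fibre protein that restrains processing of the TGF-β precursor, fell by 0.81 (FDR = 0.185).

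Of the 18 activators and carriers, 6 fell and 0 rose, with a median of -0.45. *Ctsk*, the collagen-degrading protease of osteoclasts and fibroblasts, measured 13260 and 12950 in young adult mice and 5023 and 5177 in aged mice (log2 fold change -1.36, FDR = 0.168). The metalloproteinase genes *Mmp9* (-1.16, FDR = 0.211), *Mmp2* (-0.95, FDR = 0.178) and *Mmp14* (-0.78, FDR = 0.208) also fell, as did *Thbs2* (-0.64, FDR = 0.201), a thrombospondin that, unlike thrombospondin-1, is not known to activate TGF-β. The *Mmp9* call was lost with scaling to the 75th percentile (FDR = 0.265, or 0.284 on the processed intensity). Of the 6 integrin subunits in the list, named here after their values were seen, *Itgb3* fell (218 and 230 against 146 and 157, log2 fold change -0.57, FDR = 0.218). The other subunits were not called: *Itgav* gave -0.25 (FDR = 0.367), *Itgb1* -0.20 (FDR = 0.432), *Itgb5* -0.31 (FDR = 0.309), *Itgb6* 0.13 (FDR = 0.662) and *Itgb8* -0.38 (FDR = 0.406). Of the 9 co-receptors and alternative receptors, 1 fell. It was *Eng*, endoglin, an endothelial TGF-β co-receptor, which measured 1518 and 1605 against 959 and 896 (log2 fold change -0.75, FDR = 0.192). *Cd109*, named after its values were seen, had a larger decrease but was not called (log2 fold change -1.08, FDR = 0.259).

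Downstream of the receptors, 0 of 10 SMAD transducers and partners were called in either direction. At an unadjusted P below 0.05 the count was also 0, and the list's median was 0.05. *Smad2* (0.02), *Smad3* (-0.0026) and *Smad4* (-0.02), named after their values were seen, had log2 fold changes near 0. Among the 12 inhibitors of the SMAD signal, 0 were called by limma and 2 were lower at an unadjusted P below 0.05, with a median of -0.12. Among all genes, 2.33% were called lower and 1.65% higher, and 7.08% were lower at an unadjusted P below 0.05. At these shares, lists this short would hold few calls or none.

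Among 25 genes known to be induced by TGF-β, 9 fell and 0 rose, with a median of -0.25. The falls with the greatest size were in collagen genes: *Col1a1* measured 39300 and 37400 in young adult mice and 9407 and 10080 in aged mice (log2 fold change -1.98, FDR = 0.168). *Col3a1* (-1.97) and *Col1a2* (-1.52) fell without overlap between ages, together with *Postn*, which encodes the matrix protein periostin (-1.03), and *Loxl2*, a collagen cross-linking enzyme (2.004-fold lower). The collagen genes had been described from these arrays before the list was written, so they are not independent evidence of its direction. *Ccn2*, connective tissue growth factor, named after its values were seen, was not called (log2 fold change 0.10, FDR = 0.627). In the list of 34 activin, GDF and BMP genes, a related branch of the superfamily, 3 fell and 0 rose, with a median of -0.17. They were *Fstl1*, a secreted follistatin-like protein (-1.05), *Gdf10*, a BMP-like ligand (-0.95), and *Inhba*, the activin A subunit (-0.77).

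**Figure D3:**
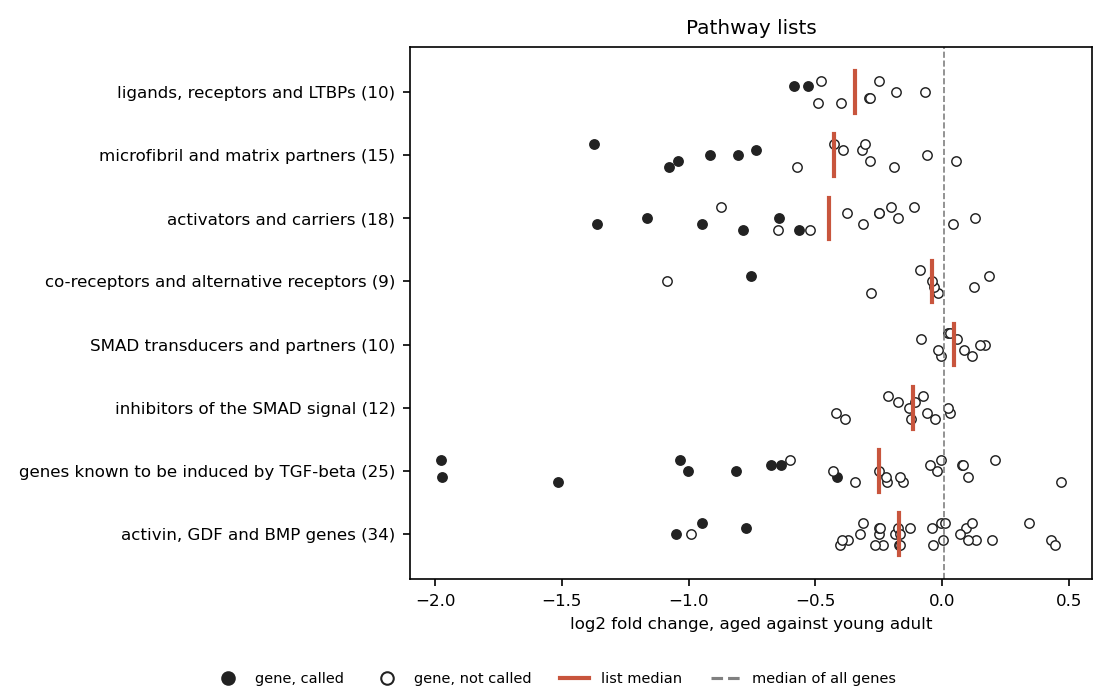
Log2 fold change (aged minus young adult) of every gene in the 10-gene set and the 7 pathway lists, with a point per gene (filled where called), a red line for the list median and a dashed line for the median of all genes (0.01). The matrix partner and activator lists reach the lowest medians (-0.43 and -0.45), and the SMAD transducer list lies around 0 (median 0.05) with no called gene. Among all genes, 2.33% were called lower and 1.65% higher.

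Markers of fibroblasts, endothelium and bone were mostly lower in aged mice, like these genes. So were markers of macrophages and of Schwann and ensheathing cells. The summed level of the 10 genes ranged from 35140 to 36140 on the young adult arrays and from 26770 to 27560 on the aged arrays. Fibroblast markers summed to 27590 to 28000 and 18380 to 19200, with 5 of 8 called lower. Those not called were *Pdgfra* (log2 fold change -0.29), *Pdgfrb* (-0.37) and *Thy1* (0.03). Endothelial markers summed to 28460 to 29030 and 17460 to 17510, with 5 of 8 called lower. Bone markers summed to 29120 to 31390 and 15080 to 15840, with 6 of 8 called lower. The brightest gene weighed most in the sums of these markers. *Lum* averaged 14070 in young adult and 8665 in aged mice, *Egfl7* 16150 and 9308, and *Bglap2* 22320 and 11360. All of these lists were separated by age in their sums. Among all genes, 2.33% were called lower, and 21.8% had both aged arrays below both young adult arrays.

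Macrophage markers were called lower for 3 of 7 genes (sums of 7386 to 7739 against 5567 to 5666), and Schwann and ensheathing cell markers for 3 of 7 (36120 to 36910 against 25380 to 26880). For smooth muscle and pericyte markers 3 of 7 were called lower. Their sum, 25950 to 26490 against 25720 to 25840, changed little, although it too did not overlap between ages. Mature olfactory receptor neuron markers summed to 454200 to 465200 in young adult mice and 509200 to 516600 in aged mice, with 1 of 8 called higher. *Matn1* of the cartilage list, *Gp1ba* of the platelet list and *Cd8a* of the T cell list did not pass the background threshold on any array. The part of cell composition in the lower levels of the 10 genes was not tested.

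**Figure D4:**
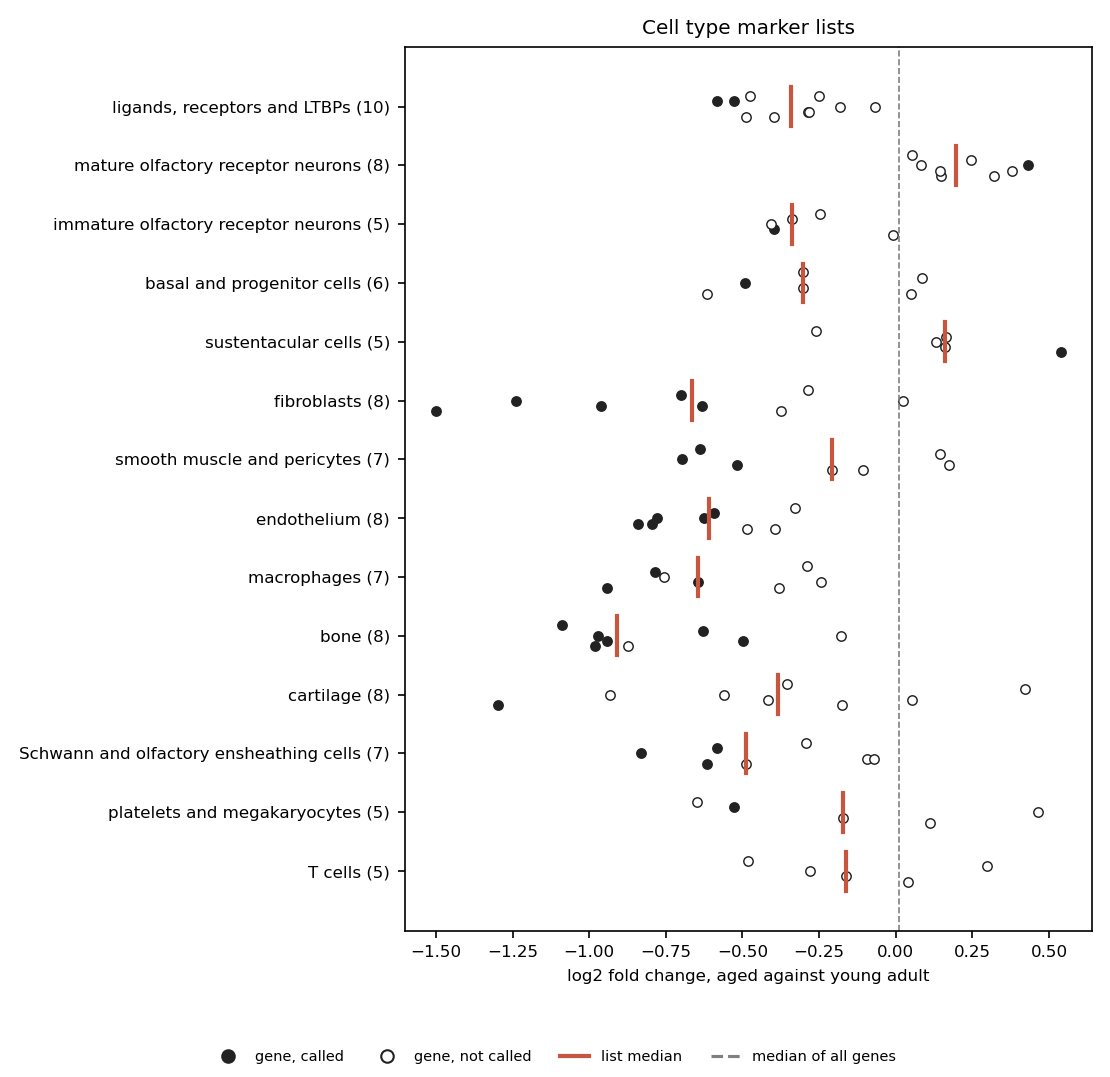
Log2 fold change (aged minus young adult) of the genes of 13 cell type marker lists beside the 10 genes, with a point per gene (filled where called), a red line for the list median and a dashed line for that of all genes. Bone (median -0.91), fibroblast (-0.66), macrophage (-0.65), endothelial (-0.61), Schwann and ensheathing cell (-0.49) and cartilage (-0.39) lists have medians below that of the 10 genes (-0.34), and the mature olfactory receptor neuron list lies above 0 (0.20).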

How the data were processed

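RNA of septal nasal mucosa was measured on 4 Agilent single-colour arrays, 2 per age, and each array held the RNA of a pool of 5 mice. The authors extracted the spots with Feature Extraction 11.0.1.1. They deposited median intensities of spots and of their local backgrounds, the scanner software's processed intensity and quality flags, without normalization between arrays. The submitters' processing notes also name R 3.2.1. The values of the deposited series table were those of the processed intensity (62976 of 62976 spots on each array).

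The background was corrected by normexp (offset 0) on all spots in limma 3.58.1 under R 4.3.3. Control spots and 88 to 118 flagged non-control spots per array were left out, and the log2 values were averaged over the spots of a probe, quantile normalized and averaged over the probes of a gene. Of 56605 probes, 32994 (58.3%) matched a symbol of the RefSeq table by accession without version, and the others kept the identifier of the array design. A total of 12 genes with a missing value were left out. The design uses another genome build than the promoter table, so no array coordinates were printed.

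Ages were compared with lmFit and eBayes without covariates on all genes (prior degrees of freedom 1.38, residual 2). Genes were called at P below 0.05 and FDR below 0.25, and a differentially expressed gene also needed a mean expression of 100 and a 1.5-fold change, after the study's methods. The number of arrays limits the precision. The fit was also run on simulated data with independent noise for each array and spreads taken from these arrays. Such data cannot address pools that share mice or arrays that share a slide.

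The genes and lists were chosen with earlier results of these data known. Named were all 10 genes, up to 5 called genes per pathway list by size of change (mean expression at least 100), and the 3 nearest genes for the 3 largest changes. The 13 marker lists covered mature and immature olfactory receptor neurons, basal cells, sustentacular cells, fibroblasts, smooth muscle and pericytes, endothelium, macrophages, bone, cartilage, Schwann and ensheathing cells, platelets and T cells.

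The alternatives tried were other background corrections and normalizations, the processed intensity, flagged spots kept, dim probes left out, the most intense probe, linear averages, an intensity trend, a block for the replicate number, the shared slide alone, omission of each array, and other limits on expression and FDR.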

Additional observations from a re-analysis of the deposited data

How the results depend on the processing

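The 10 genes had log2 fold changes below 0 under every setting run, and no sign reversed. The number called lower, 2, became 1 with scaling to the 75th percentile (1.88% of all genes called lower there, against 2.33%), 5 without background correction (4.91%), 6 with the processed intensity quantile normalized (5.14%), 7 with a normexp offset of 50 (5.43%) or with dim probes left out (12.6%), 8 among genes whose mean expression reached 100 (13%), and 9 with an intensity trend (7.71%). It was 0 at an FDR limit of 0.05 or 0.1, where 0 and 2 of all genes were called lower. Leaving out each array gave 0 (0 to 0), where the lone pool of an age is assumed to vary like the other age. For the 123 other pathway genes, read against the same shares, the 25 called lower became 43 with the quantile-normalized processed intensity, 44 without background correction, 46 with an offset of 50, 54 with dim probes left out, 55 with the expression limit, 56 with the trend, 0 at both stricter FDR limits and 0 (0 to 0) without each array. Those called higher, 0, became 1 with an offset of 16, without background correction and with the quantile-normalized processed intensity, 2 with an offset of 50, 3 with the expression limit or the trend and 4 with dim probes left out. Fewer genes enter the adjustment with dim probes left out or the expression limit; for the other settings the cause was not tested. The median, -0.34, was -0.29 with an offset of 50 and with the most intense probe, -0.38 on the shared slide alone, and -0.41 to -0.32 without each array. Calls among all genes, 1063 lower and 754 higher, ranged from 0 and 0 without each array to 3706 lower with dim probes left out and 3612 higher with the trend. The replicate numbers did not pair the arrays (correlation of same-numbered deviations -0.08), and with the replicate number as a block 0 of the 10 genes, 0 of the pathway genes and 0 of all genes were called. The slide as a random block could not be estimated (0 of 2000 genes gave a value). The number of arrays, and for the dim *Tgfb1* probe its signal over background, limits these values.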

Other observations

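The marker lists not described above had medians on both sides of 0. Among all genes, 2.33% were called lower and 1.65% higher, and 7.08% were lower at an unadjusted P below 0.05 in limma. A single call in a list this short says little about a cell type. Of 5 immature olfactory receptor neuron markers, 1 was called lower (median log2 fold change -0.34, summed level 43650 to 45270 in young adult mice and 36080 to 36790 in aged mice), and of 6 basal and progenitor cell markers, 1 was called lower (median -0.30). Of 5 sustentacular cell markers, 1 was called higher (median 0.16). Of 8 cartilage markers, 1 was called lower (summed level 3481 to 3487 against 2758 to 2782), as was 1 of 5 platelet markers (2235 to 2426 against 1726 to 1924). Among 5 T cell markers, 0 were called by limma and 0 had an unadjusted P below 0.05 (median -0.16).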
